A study of Mus musculus with 4 samples.

Results

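Thyroid hormone acts only where cells let it in, convert it and read it. The genes described here are 8 of the 32285 genes in the count tables, chosen by symbol: the deiodinases Dio1, Dio2 and Dio3, the transporters Slc16a10 and Slc7a8, the hormone-binding protein Crym and the nuclear receptors Thra and Thrb. Their levels were read in each cell class of the mouse thyroid after birth. Deiodinases are selenoenzymes that remove iodine from the hormone: the outer-ring reaction turns thyroxine (T4) into the active triiodothyronine (T3), and the inner-ring reaction inactivates both. T4 and T3 cross membranes through transporters of the SLC16, SLC7 and SLCO families, and T3 in the nucleus binds the receptors, which recruit co-activators or co-repressors at target genes such as Klf9. The follicular cells of the thyroid make the hormone on thyroglobulin (Tg), and the gland releases T3 as well as T4.

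The samples were 4 single-cell RNA libraries of dissociated thyroid tissue of C57 mice, labelled as postnatal day 5, 10, 20 and 30. Per the methods each library pooled tissue of several C57BL/6 mice, so each age has 1 library, and no mutation or treatment is named for any group. Dead cells were removed before capture, and the libraries were 3′ counts of unique molecular identifiers (UMIs). The study asked how follicular cells form follicles at these ages. Values in sets of 4 are given in the order of the labels, and "the day 5 library" means the library with that label.

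The age labels carry a doubt that touches every comparison between libraries. H19, a fetal transcript that falls after birth in most tissues, had 61.3, 817, 123 and 2883 UMIs per 1000000 UMIs (CPM) in fibroblast-like cells, highest in the day 30 library. Fibroblast-like cells came from cluster 4, with 1740 CPM of H19, and cluster 3, with far less, and cluster 4 made up 14.6%, 94.8%, 19.7% and 98.5% of them. Cluster 4 prevailed in the day 10 and day 30 libraries alike, and H19 still differed between these (817 and 2883 CPM). H19 is itself a leading gene of cluster 4. In the authors' cell table, sample number 1 matched the day 30 library (6538 cells), numbers 2 and 3 the day 10 and day 20 libraries, and number 4 the day 5 library (15251 cells), so the first and last are exchanged against the order of ages. The methods likewise list the most cells for the oldest age, whereas the files hold the most in the day 5 library. Directions between ages below are therefore directions between libraries as labelled, and an exchange of the day 5 and day 30 labels would turn every ratio of day 30 to day 5. After filtering, 12956, 5652, 6150 and 4820 cells remained, with medians of 3435, 6040, 3019 and 7056 UMIs. Of the cell barcodes of the day 10, 20 and 30 libraries, 97.4% to 98.8% also occurred in each other's matrices at medians of 8 to 12 UMIs, against 33.6% to 49.9% in pairs with the day 5 library at a median of 1 UMI. Free RNA, measured in droplets of 10 to 100 UMIs, held 13301, 8489, 17042 and 8781 CPM of Tg, the transcript that defines follicular cells.

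Cells were clustered without the members and named by marker genes into 15 classes, with the suffix "-like". Thyroid follicular cell-like (TFC-like) cells numbered 2374, 498, 304 and 527, with 25873279, 8551532, 6546159 and 14804863 UMIs. Of 10 TFC markers, 8 were highest in this class. The exceptions were Fcgbp and Slc26a4, the second with 1, 1, 0 and 1 UMIs. Endothelial-, fibroblast-, stromal- (mural), macrophage- and T-like classes had every one of their 7, 7, 8, 7 and 7 markers highest in their own class. In C cell-, parathyroid-, dendritic- and monocyte-like classes this held for 7 of 8, 5 of 6, 6 of 8 and 4 of 7 markers. The cluster that the mast cell list named was led by Hilpda, Cma1, Areg and Il1rl1. Cma1 had 939 CPM in the whole cluster, but 447 of the 463 cells had no UMI of Cma1, Cpa3, Tpsb2 or Mcpt4. The cluster is therefore called the Areg- and Il1rl1-rich cells. Levels are the UMIs of 1 class in 1 library, in CPM, with exact 95% Poisson intervals that cover counting error only. In such totals, fewer positive cells and less RNA per cell cannot be told apart unless shares of cells are given.

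Each of the 3 deiodinases has a codon that is read as selenocysteine, and the stretch around it is shown because it encodes the active site of the enzymes. Each line holds 63 bases of the coding sequence on the gene's own strand, in GRCm38 (GENCODE vM21), and the capitals mark the UGA codon, written TGA, that is read as selenocysteine.
Dio1: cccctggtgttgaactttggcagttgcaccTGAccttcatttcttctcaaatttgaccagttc
Dio2: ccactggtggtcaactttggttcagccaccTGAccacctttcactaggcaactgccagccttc
Dio3: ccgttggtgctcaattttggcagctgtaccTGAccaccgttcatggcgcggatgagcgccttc
The Dio1 stretch is chr4:107297670-107297732 in coding exon 2 of 4 of a gene on the minus strand that spans 107291465 to 107307169. The Dio2 stretch is chr12:90729793-90729855 in exon 2 of 2, on the minus strand, and holds the first of 2 annotated selenocysteine codons of a gene that spans 90724552 to 90738438 and overlaps Gm26512. The Dio3 stretch is chr12:110279709-110279771 in the single exon of a plus-strand gene that spans 110279068 to 110281097. Dio2 and Dio3 were alike at 41 of the 63 positions (65.1%), Dio1 and Dio3 at 37 (58.7%) and Dio1 and Dio2 at 36 (57.1%). Dio1 was highest in follicular cell-like cells, and Dio2 and Dio3 in fibroblast-like cells, as given next.

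Dio1 encodes the type 1 deiodinase, a plasma membrane enzyme that can act on either ring and yields T3 in thyroid, liver and kidney. In TFC-like cells it had 428 CPM (420.2 to 436) in the day 5 library from 11077 UMIs, 285 (274 to 297) in day 10 from 2438, 269 (257 to 282) in day 20 from 1761 and 178 (172 to 185) in day 30 from 2639. The day 5 library was highest and the day 30 library lowest, and the intervals of day 10 and day 20 overlap. TFC-like cells had the highest level of all 15 classes, at 290.1 ± 103 CPM (SD, n = 4 libraries). The C cell-like class came next at 128 ± 52.2 CPM (n = 4), with values of 191, 102, 148 and 72.3 CPM, of which the highest lies above the lowest TFC-like value of 178.

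Against the other large classes Dio1 was higher in TFC-like cells by edgeR's quasi-likelihood test on the sums, with the library as a block and Benjamini-Hochberg adjustment over 14675 genes. It was 72.1-fold higher than in endothelial-like cells (log2 6.17 ± 0.48 SE, adjusted p = 3.55e-15) and 91.1-fold higher than in fibroblast-like cells (log2 6.51 ± 0.49, adjusted p = 1.07e-15). It was 28.1-fold higher than in stromal-like cells (adjusted p = 1.65e-10), 99.3-fold higher than in macrophage-like cells (adjusted p = 1.74e-14) and 107-fold higher than in T-like cells (adjusted p = 1.07e-14). The calls held in every alternative, but the sizes moved, from log2 3.87 to 8.74 against stromal-like, 4.16 to 7.28 against fibroblast-like, 4.54 to 6.41 against endothelial-like, 5.94 to 7.01 against macrophage-like and 5.02 to 7.19 against T-like cells. Without the day 5 library the fold over stromal-like cells was log2 8.74 and that over fibroblast-like cells 7.28. The genes whose levels were most like those of Dio1 over the 54 sums of class and library were Tg, the hormone precursor protein, with a Pearson r of 0.96, Gm12446 with 0.96 and Tspan1 with 0.95, among 13414 genes. These sums share libraries and depth, and no test was made of the correlations. The p-values take the clusters as given. They set the fold changes against the spread left after the library block, in an estimate shared by all 15 classes. The 4 libraries are of different labelled ages.

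**Figure D1:**
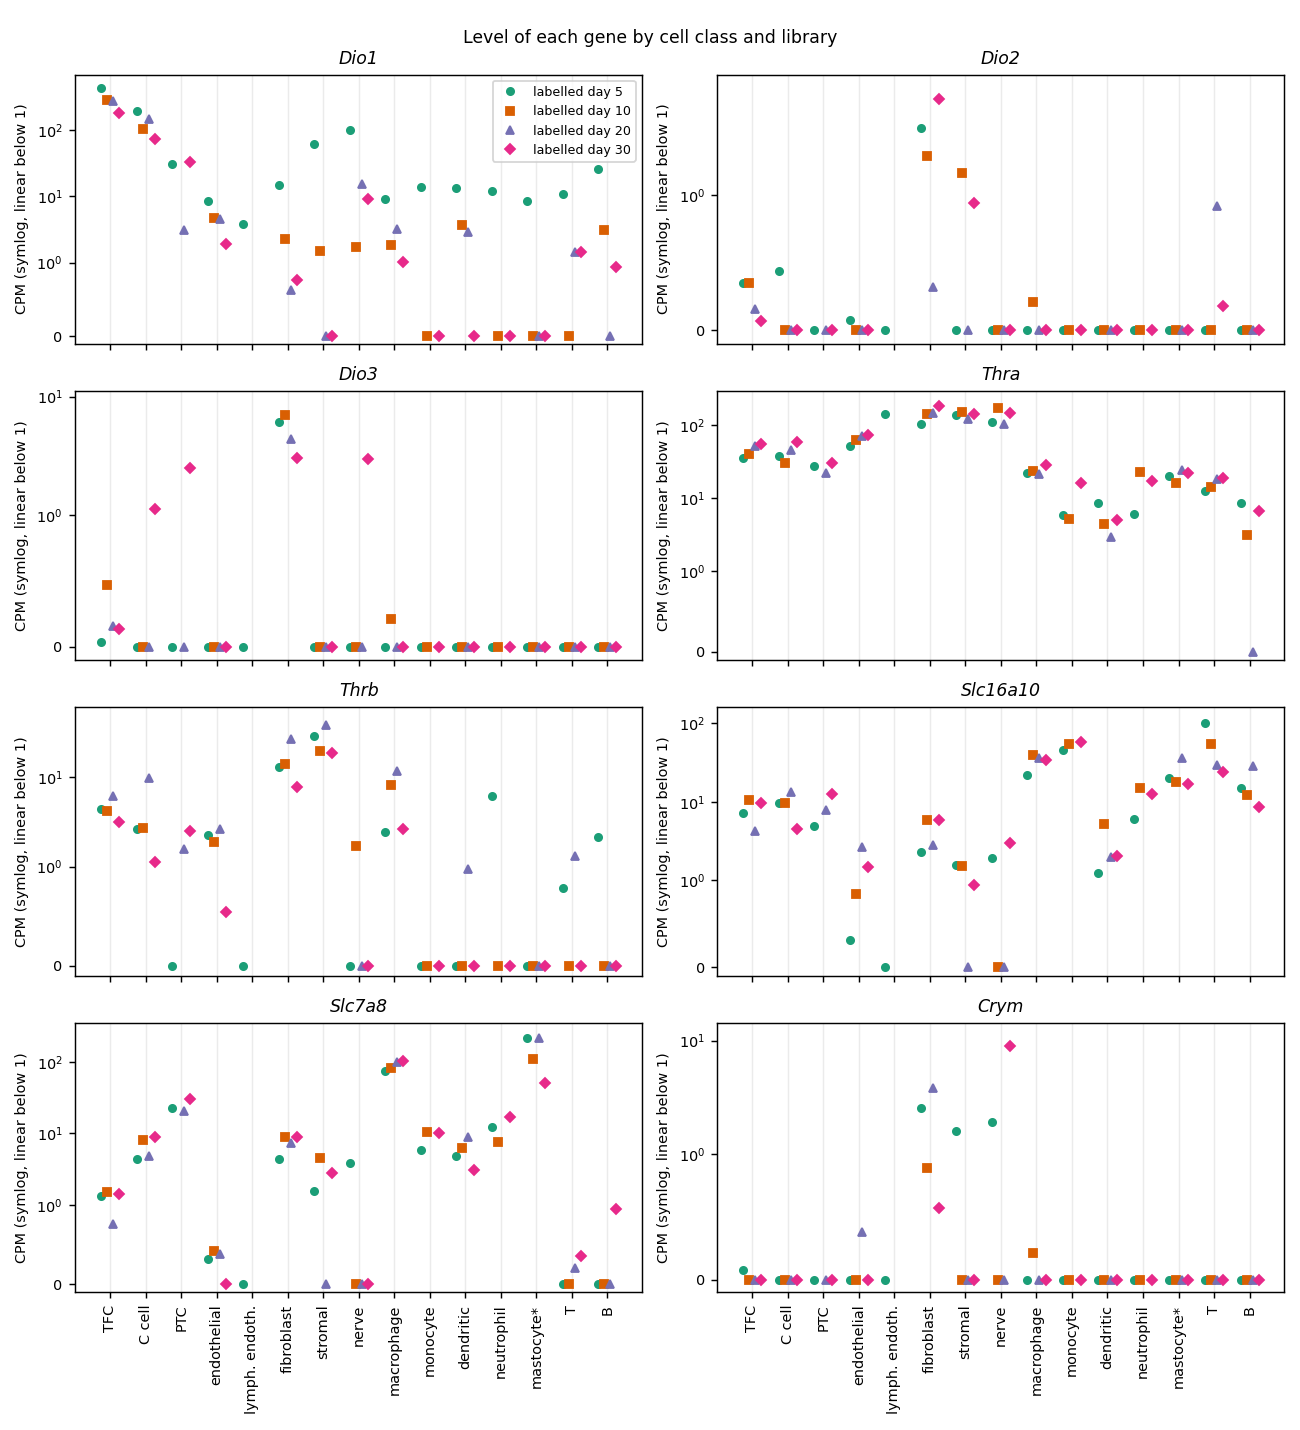
Level of the 8 members in CPM (vertical axis, linear below 1 and logarithmic above) in 15 cell classes, with 1 point for each library that had at least 20 cells of the class. Dio1 stands highest in TFC-like cells, Slc7a8 in the Areg- and Il1rl1-rich cells (marked with an asterisk) and macrophage-like cells, Thra in fibroblast-, stromal-, nerve- and lymphatic endothelial-like cells and Thrb in stromal- and fibroblast-like cells, while Dio2, Dio3 and Crym stay below 10 CPM.

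The Dio1 level differed less between clusters of TFC-like cells than between libraries. The class joined clusters 6 and 17, and cluster 6 held 80.6%, 26.3%, 59.9% and 21.1% of it. Cluster 6 had 431, 316, 304 and 196 CPM of Dio1 and cluster 17 had 419.9, 280.1, 236 and 177. Both clusters were highest in the day 5 and lowest in the day 30 library. TFC-like cells with at least 1 Dio1 UMI made up 89.3%, 84.7%, 90.8% and 79.1% of the class at medians of 8292, 12259.5, 15362 and 17536 UMIs. After thinning to 2000 UMIs per cell the shares were 55.5%, 42.3%, 42.1% and 27.4%, against 2.05%, 0%, 0.249% and 0.219% of T-like cells. The highest count in 1 cell was 36, 45, 28 and 36 UMIs of Dio1.

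The log2 ratio of the day 30 to the day 5 library for Dio1 in TFC-like cells was -1.26 (-1.33 to -1.20), where the median over genes was 0.30. In this class 3.89% of 14980 genes were at least 2-fold higher in day 5 and 14.2% at least 2-fold higher in day 30. With 1 library for each age no test was made, the direction rests on the labels, and libraries also differed in depth per cell. The median Dio1 CPM per cell ran 396, 226, 258 and 144, in which each cell counts equally.

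Dio1 in other classes was set beside transcripts of follicular cells. Fibroblast-like cells had 14.6, 2.27, 0.63 and 0.758 CPM of Dio1, stromal-like cells 61.6, 1.52, 0 and 0, nerve-like (Schwann) cells 101, 1.7, 15.2 and 8.96 and T-like cells 11, 0, 1.43 and 1.43. In each of these classes the day 5 library was highest. The summed level of the 10 TFC markers there was 1711, 317, 428 and 209.9 CPM in fibroblast-like, 8236, 807, 488 and 254 in stromal-like, 12828, 477, 3227 and 2022 in nerve-like and 1135, 340.2, 482 and 278 in T-like cells, against 53034, 43649, 71702 and 36800.5 in TFC-like cells. Most of each sum was Tg, with 1654 of the 1711 CPM in fibroblast-like cells of day 5. In fibroblast-like cells Dio1 was lower in day 20 than in day 10, whereas the sum was higher. A UMI of 8 or 9 of the 10 markers was present in fibroblast-like, of 3 to 8 in stromal-like, of 6 to 8 in nerve-like and of 4 to 9 in T-like cells, depending on the library. Free RNA held 158, 49.6, 62.4 and 48.5 CPM of Dio1, again highest in day 5. The part of free RNA in the Dio1 of these classes was not tested.

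C cell-like cells, defined by calcitonin (Calca), had Dio1 at 44.6%, 35.8%, 55.2% and 40.6% of the TFC-like level. Tg stood at 46.9%, 38.9%, 33.4% and 37.3% in the same libraries, and the transcription factor Pax8 at 43.8%, 37.9%, 36.9% and 37.2%. Of other TFC markers, Nkx2-1 stood above Dio1 in each library, at 75.8%, 57.8%, 77.9% and 70.2%. Foxe1 at 37.0%, 26.5%, 35.0% and 32.3% and Duoxa2 at 30.4%, 24.6%, 26.3% and 22.2% stood below Dio1 in each. The 216 C cell-like cells with at most 10000 UMIs had 99.1, 0, 28 and 0 CPM of Dio1, with 38 of their 40 UMIs from day 5, and the 214 with more UMIs had 209.7, 108, 160.0 and 84.2. When clustering was repeated with cells of at most 10000 UMIs, as in the methods, the C cell-like class had 5 UMIs of Dio1 in day 5 and 0 elsewhere, a mean of 3.86 CPM. Whether the Dio1 or the Nkx2-1 of C cell-like cells is their own was not tested.

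**Figure D2:**
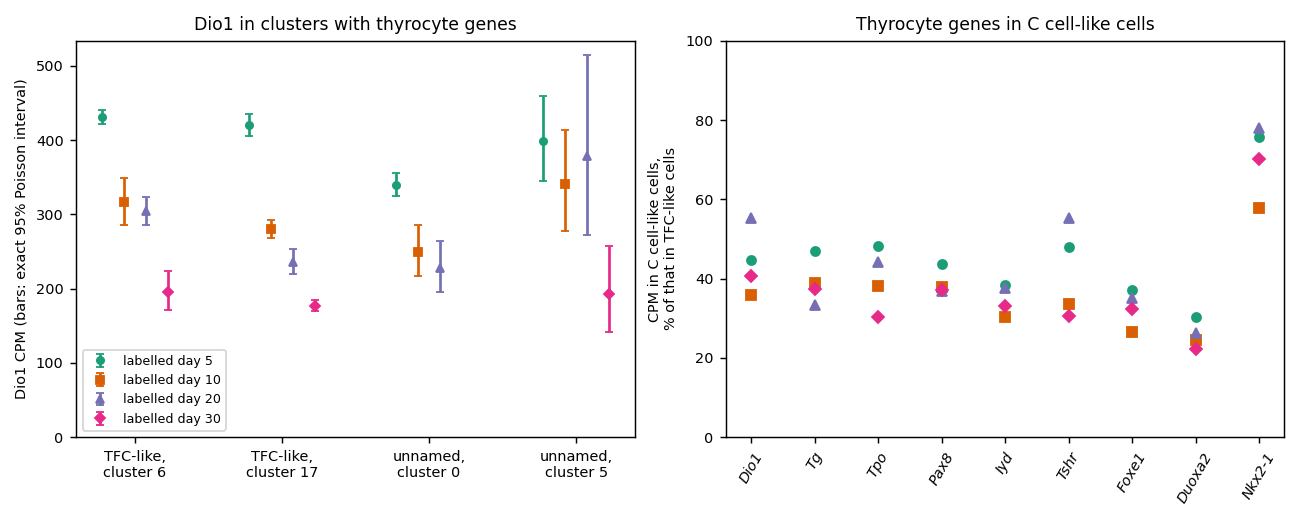
Left, Dio1 in CPM with exact 95% Poisson intervals in TFC-like clusters 6 and 17 and in unnamed clusters 0 and 5, for each library. Right, level in C cell-like cells as a percentage of the TFC-like level for Dio1 and 8 genes of follicular cells, where Dio1 lies at 35.8% to 55.2%, near Tg at 33.4% to 46.9%.

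Dio2 encodes the type 2 deiodinase, which converts T4 to T3 inside the cell. It was counted only 9, 3, 1 and 1 times in TFC-like cells. Fibroblast-like cells held 111 UMIs, which is 3.55 CPM (2.30 to 5.24), 2.08 (1.29 to 3.17), 0.315 (0.00797 to 1.75) and 6.07 (4.67 to 7.75). The day 30 library was highest, and its interval overlaps that of day 5 only. Of the fibroblast-like clusters, cluster 4 (Col3a1, H19), which held most of these cells in the day 10 and day 30 libraries, had 4.26 CPM from 96 UMIs, and cluster 3 (Gsn, Mgp), which held 85.4% and 80.3% of them in day 5 and day 20, had 1.79 CPM from 15. In T-like cells 18 of 19 UMIs came from the day 20 library, which also gave 3961 of the T-like cells, against 447, 153 and 1239 from day 5, 10 and 30.

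Dio3 encodes the type 3 deiodinase, which inactivates T4 and T3 and lies in an imprinted region. Its highest level was in fibroblast-like cells, where its 160 UMIs gave 6.11 CPM (4.42 to 8.22), 7.02 (5.48 to 8.85), 4.41 (2.41 to 7.40) and 3.03 (2.07 to 4.28), or 5.14 ± 1.77 (SD, n = 4). The lowest of the 4 libraries was above every value of the other classes with at least 20 cells. Both fibroblast-like clusters had Dio3, with 5.14 CPM in cluster 3 and 5.20 in cluster 4. TFC-like cells had 1, 4, 1 and 2 UMIs, and B-, T-, dendritic-, endothelial-, monocyte-, neutrophil- and stromal-like cells and the Areg- and Il1rl1-rich cells had 0. After thinning to 2000 UMIs, 0.782%, 1.45%, 1.05% and 0.816% of fibroblast-like cells had a UMI. The divergent neighbour Dio3os, a noncoding RNA on the other strand that does not overlap Dio3 and was chosen after its values were seen, had 12.2, 4.15, 14.2 and 2.75 CPM in fibroblast-like cells and 0 UMIs in TFC-like cells. The log2 ratio of day 30 to day 5 for Dio3 was -1.0 (-1.72 to -0.32), in a class where 9.09% of genes were at least 2-fold higher in day 5 and 9.02% in day 30.

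Crym encodes mu-crystallin, a cytosolic protein that binds T3. Fibroblast-like cells had 2.56 CPM (1.51 to 4.04), 0.890 (0.407 to 1.69), 3.78 (1.95 to 6.60) and 0.569 (0.209 to 1.24), 45 UMIs in all. The day 5 and day 20 libraries, in which cluster 3 prevailed, were above the other pair, and Crym had 3.22 CPM in cluster 3 and 0.80 in cluster 4. Nerve-like cells had 1, 0, 0 and 3 UMIs, a mean of 2.72 CPM, and TFC-like cells had 2 UMIs in day 5 and 0 elsewhere. Crym lies on chromosome 7 from 120186380 to 120202111. Because of such low counts Dio2, Dio3 and Crym did not pass the filter of edgeR, which left 5 of the 8 members tested.

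Slc16a10 (MCT10), on chromosome 10 from 40033532 to 40142258, carries T3, T4 and aromatic amino acids. T-like cells had 102, 54.0, 29.3 and 24 CPM, monocyte-like cells 46.3, 55.0 and 58.1 in day 5, 10 and 30, and macrophage-like cells 22.1 (14.6 to 32.2), 39.1 (33.7 to 45.1), 36.4 (25.2 to 50.8) and 34.6 (29.6 to 40.2). Means were 52.2 ± 35.5 (SD, n = 4) in T-like, 53.1 (n = 3) in monocyte-like and 33.1 (n = 4) in macrophage-like cells, and the range of T-like cells overlaps those of both other classes, while every monocyte-like value is above every macrophage-like value. Free RNA held 3.08, 6.02, 18.4 and 5.59 CPM, above the TFC-like level given next in day 20. Macrophage- and T-like cells differed by a log2 fold change of -0.64 (adjusted p = 0.105), a comparison in which 26.4% of genes were higher in macrophage- and 28.1% in T-like cells. TFC-like cells had 7.11, 10.6, 4.28 and 9.79 CPM, below every value of the 3 classes. The remaining classes lay between 0 and 22.8 CPM on average, with the Areg- and Il1rl1-rich cells at the top. TFC-like cells were 7.32-fold lower than T-like cells (log2 -2.87 ± 0.34 SE, adjusted p = 6.74e-10, and log2 -2.19 without the day 5 library and -1.80 with cells of at most 10000 UMIs) and 4.68-fold lower than macrophage-like cells (adjusted p = 2.08e-07). They were 7.82-fold higher than endothelial-like cells (adjusted p = 7.00e-08) and 6.66-fold higher than stromal-like cells (log2 2.74, adjusted p = 0.00230, and log2 1.91 after integration), and the difference from fibroblast-like cells, log2 0.72 ± 0.35, was not called (adjusted p = 0.0775).

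In T-like cells both the level and the mix of clusters differed between libraries. The part of the mix in the differences of level was not tested. Cluster 25, led by the gamma-delta T cell genes Trdc and Il17a, made up 78.3%, 39.9%, 1.36% and 1.53% of T-like cells and had 124, 119 and 163 CPM of Slc16a10 in the libraries with at least 20 of its cells. Cluster 23 had 8.46, 6.34, 22.4 and 22.9 CPM, cluster 28, with the thymocyte gene Rag1, had 29.6 and 28.3 in day 20 and day 30, and cycling cluster 30 had 27.5 and 19.7. Within cluster 25 the day 5 library was thus not the highest. The log2 ratio of day 30 to day 5 over all T-like cells was -2.09 (-2.45 to -1.73), and in that class 16.3% of genes were at least 2-fold higher in day 5 and 26.2% in day 30. Over all libraries, cluster 25 gave 24.6% of the 867 UMIs of Slc16a10 in T-like cells. After thinning to 2000 UMIs, 16.9%, 9.15%, 5.49% and 4.82% of T-like cells had a UMI, and 1.5%, 1.64%, 1.00% and 0.978% of TFC-like cells.

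Slc7a8 (LAT2), on chromosome 14 from 54722209 to 54781946, is the light chain of an amino acid exchanger that takes up T3 and the hormone metabolite T2. The Areg- and Il1rl1-rich cells had 215 CPM (179 to 256), 112 (84.9 to 146), 221 (167 to 288) and 50.3 (29.8 to 79.5), a mean of 149.8 ± 83.0 (SD, n = 4). Macrophage-like cells had 76.3 (61.6 to 93.4), 84.0 (76.0 to 92.6), 99.5 (80.3 to 122) and 104 (95.6 to 114), a mean of 91.0 ± 13.1. The macrophage-like range lies inside that of the Areg- and Il1rl1-rich cells, whose day 30 library was the lowest of all 8 values. Parathyroid-like cells followed at 24.4 CPM, and TFC-like cells had 1.31, 1.52, 0.764 and 1.42. The means of neutrophil-, monocyte-, fibroblast-, C cell- and dendritic-like cells were 12.3, 8.81, 7.39, 6.61 and 5.76 CPM, and those of the remaining classes were at most 2.24.

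Slc7a8 was 75.8-fold lower in TFC- than in macrophage-like cells (log2 -6.24 ± 0.34 SE, adjusted p = 2.51e-20). It was also 6.13-fold lower in TFC-like than in fibroblast-like cells (adjusted p = 2.06e-09). From low counts it was 4.32-fold higher than in endothelial-like cells (adjusted p = 3.78e-04) and 4.67-fold higher than in T-like cells (adjusted p = 0.00136), which held 6 UMIs in all. Free RNA held 1.37, 6.73, 4.49 and 5.59 CPM of Slc7a8, above the TFC-like level in each library. These values are shares of free RNA and not a background level within cells. The part of free RNA in the Slc7a8 of TFC-like cells was not tested. The call against T-like cells was lost without the day 20 library (adjusted p = 0.0803), with cells of at most 10000 UMIs (adjusted p = 0.0583) and with doublets kept (log2 0.96, adjusted p = 0.0959). The difference from stromal-like cells, log2 -0.85 ± 0.66, was not called (adjusted p = 0.333). Macrophage-like cells were 354-fold above T-like cells (adjusted p = 5.28e-19). Among macrophage-like clusters, cluster 24 had 81.1, 86.4, 102 and 115 CPM and cluster 15 had 37.2, 57.8, 31.7 and 64.7, so cluster 24 was higher in each library. After thinning, 12.9%, 15.3%, 15.5% and 16.6% of macrophage-like cells had a UMI of Slc7a8, against 0%, 0%, 0.107% and 0.11% of T-like cells.

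**Figure D3:**
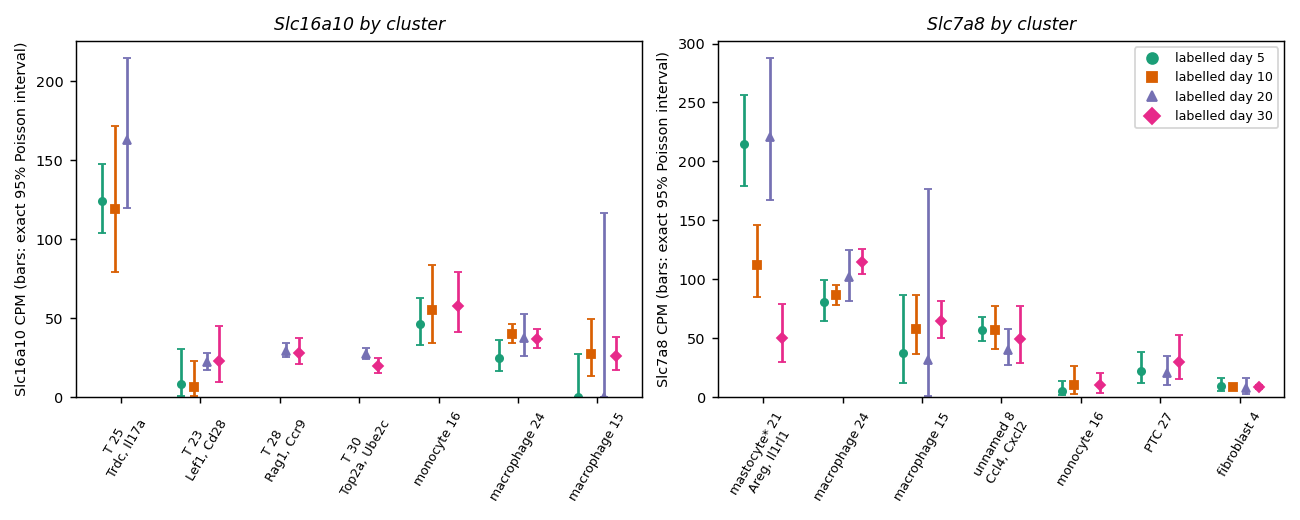
Slc16a10 and Slc7a8 in CPM with exact 95% Poisson intervals in the clusters where they are highest, for each library with at least 20 cells. Slc16a10 stands at 119 to 163 CPM in T-like cluster 25 and at 6.34 to 29.6 in the other T-like clusters, and Slc7a8 runs from 81.1 to 115 CPM in macrophage-like cluster 24.

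By pattern over the 54 sums, Slc16a10 was most like Limd2 (r = 0.78), Ptk2b (0.78) and B4galnt1 (0.76), and Slc7a8 was most like Alox5 (0.73), Cd200r1 (0.70) and Il1rl1 (0.70), the receptor for interleukin-33. The last is a marker that named the Areg- and Il1rl1-rich cells.

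Thra encodes thyroid hormone receptor alpha and lies on chromosome 11 from 98740638 to 98769006. TFC-like cells had 35.8 CPM (33.5 to 38.1), 40.5 (36.3 to 45.0), 52.9 (47.4 to 58.7) and 55.9 (52.2 to 59.9). Fibroblast-like cells had 104 (96.4 to 112), 142 (135 to 149.5), 149.9 (137 to 164) and 188 (180 to 197), stromal-like cells 138, 154, 124 and 145, and nerve-like cells 113, 176, 106 and 149. Endothelial-like cells had 52.6, 63.2, 71.1 and 73.8, macrophage-like cells 22.1, 23.3, 21.4 and 28.5, and T-like cells 12.6, 14.4, 18.4 and 18.8. Every fibroblast-, stromal- and nerve-like value was above every endothelial-like value, and every TFC-like value was above every macrophage- and T-like value. C cell-like cells had a mean of 43.9 ± 12.5 CPM, close to TFC-like cells and with overlapping ranges, and the lowest means were 5.24 in dendritic- and 4.55 in B-like cells.

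By mean level of Thra, fibroblast-like (146 ± 34.6 CPM, SD, n = 4), stromal-like (140.4 ± 12.4) and nerve-like cells (136) could not be put in order, as their ranges overlap, and fibroblast- and stromal-like cells differed by log2 0.33 (adjusted p = 0.233), where 16.7% of genes were higher in fibroblast- and 10.6% in stromal-like cells. TFC-like cells, at 46.2 ± 9.68 CPM, were 3.48-fold lower than fibroblast-like cells (adjusted p = 1.78e-11) and 2.78-fold lower than stromal-like cells (adjusted p = 2.56e-08). They were 1.38-fold lower than endothelial-like cells (log2 -0.46 ± 0.18 SE, adjusted p = 0.0285), a call lost without the library block (adjusted p = 0.0683) and without the day 30 library (adjusted p = 0.107). They were 2.38-fold higher than T-like cells (adjusted p = 9.17e-07) and 1.70-fold higher than macrophage-like cells (adjusted p = 0.00111). With cells of at most 10000 UMIs the last fold was log2 0.28 (adjusted p = 0.329).

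Thra was higher in the day 30 than in the day 5 library by log2 0.65 (0.51 to 0.78) in TFC-like, 0.49 (0.32 to 0.65) in endothelial-like and 0.86 (0.74 to 0.98) in fibroblast-like cells. In stromal-like cells the ratio was 0.07 (-0.25 to 0.39). The medians over genes were 0.30, 0.12, 0.09 and 0.20 in these classes, and changes of Thra are to be read against them. TFC-like cells went up in the order of the labels, and so did endothelial- and fibroblast-like cells. These ratios compare different clusters in part, since fibroblast-like cells were 85.4% cluster 3 in day 5 and 98.5% cluster 4 in day 30, most endothelial-like cells were of clusters 1 and 10 in day 5 and of cluster 12 in day 30, and TFC-like cells were 80.6% cluster 6 in day 5 and 21.1% in day 30. Thra had 36.5, 33.7, 50.1 and 59.8 CPM within TFC-like cluster 6 and 33.8, 41.6, 55.5 and 55.6 within cluster 17. Within fibroblast-like cluster 4 it had 133, 141, 159 and 188 CPM, and within endothelial-like cluster 12 it had 37.5, 65.0, 63.2 and 76.4. In free RNA Thra had 27.4, 26.9, 31.4 and 38.4 CPM. After thinning, 6.51%, 6.95%, 12.4% and 12.9% of TFC-like cells and 19.3%, 23.9%, 23% and 32.2% of fibroblast-like cells had a UMI.

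The 3′ end of Thra overlaps that of Nr1d1, a clock repressor on the opposite strand of chromosome 11 from 98767932 to 98775333, chosen after its values were seen. Whether counting used strand is not given in the sources used here, so reads of the overlap could be of either gene. Nr1d1 had 92.1, 36.4, 139 and 41.1 CPM in TFC-like cells and 143, 19.9, 173 and 11.5 in fibroblast-like cells. It was high in day 5 and day 20 and low in day 10 and day 30. The part of such reads in the counts of Thra was not tested.

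Thrb encodes thyroid hormone receptor beta and lies on chromosome 14 from 17660261 to 18038090. Stromal-like cells had 29.2 CPM (20.6 to 40.3), 19.8 (10.5 to 33.8), 38.3 (10.4 to 98.0) and 18.8 (11.5 to 29.1), and fibroblast-like cells 12.9, 13.9, 26.5 and 7.87. TFC-like cells had 4.37 (3.60 to 5.25), 4.21 (2.95 to 5.83), 6.11 (4.37 to 8.32) and 3.17 (2.33 to 4.22). Every TFC-like value was below every stromal- and fibroblast-like value, and the ranges of the last 2 classes overlap. Free RNA held 3.08, 2.48, 5.84 and 1.05 CPM, just below the TFC-like level in day 20. The day 20 library was highest in each of these 3 classes, though the stromal-like value rests on 4 UMIs.

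The means of Thrb were 26.5 ± 9.12 CPM in stromal-like, 15.3 ± 7.90 in fibroblast-like, 6.25 in macrophage-like, 4.47 ± 1.22 in TFC-like and 1.83 in endothelial-like cells (n = 4 each). C cell-like cells had 4.07 and the remaining classes at most 2.04 CPM on average, and monocyte-like cells and the Areg- and Il1rl1-rich cells had 0. Stromal- and fibroblast-like cells did not pass the test against each other (log2 -0.64, adjusted p = 0.162). TFC-like cells were 5.38-fold lower than stromal-like cells (adjusted p = 1.55e-07) and 3.46-fold lower than fibroblast-like cells (adjusted p = 2.57e-06). They were 2.54-fold higher than endothelial-like cells (adjusted p = 7.45e-04) and 6.21-fold higher than T-like cells (log2 2.63, adjusted p = 3.34e-06, and log2 3.97 without the day 20 library), while the difference from macrophage-like cells, log2 -0.57 ± 0.34, was not called (adjusted p = 0.16). Within TFC-like cells the log2 ratio of day 30 to day 5 was -0.45 (-0.98 to 0.04), which includes 0, and with cells of at most 10000 UMIs it turned to 1.00.

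**Figure D4:**
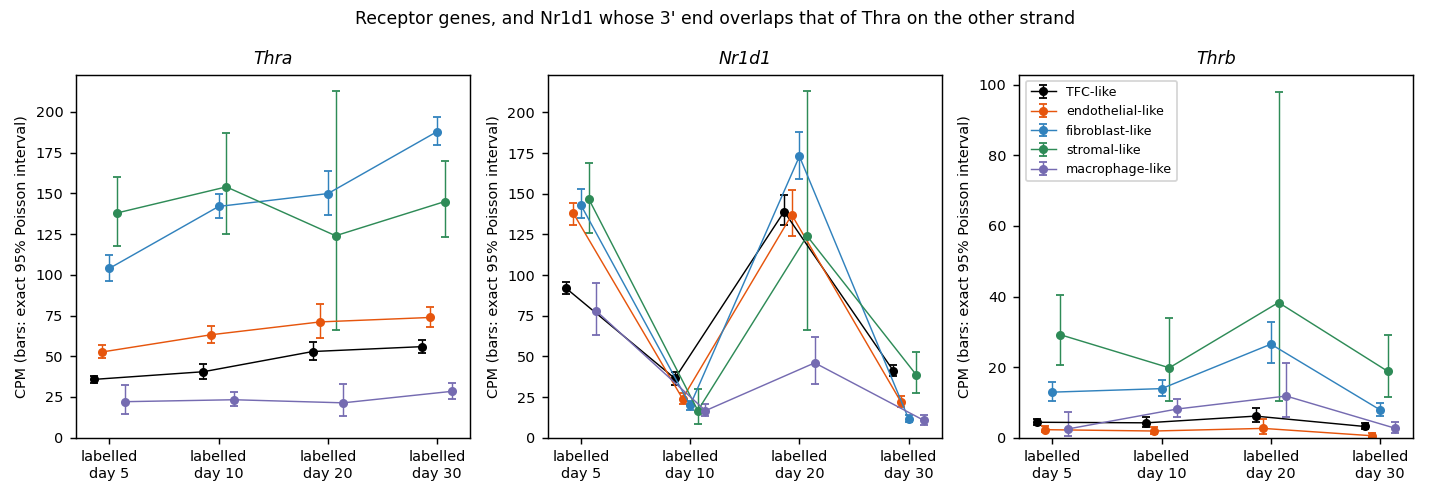
Thra, its overlapping neighbour Nr1d1 and Thrb in CPM with exact 95% Poisson intervals in TFC-, endothelial-, fibroblast-, stromal- and macrophage-like cells of the 4 libraries. Thra runs from 35.8 to 55.9 CPM in TFC-like cells in the order of the labels, while Nr1d1 alternates between 92.1 or 139 and 36.4 or 41.1.

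Thra was most like Sh3d19 (r = 0.89), Zcchc14 (0.88) and the nuclear receptor Nr2f2 (0.87) over the sums. Thrb was most like Fam110b (0.80), Gm11627 (0.79) and Prdm6 (0.79), a regulator in smooth muscle.

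Of the 5 members tested, 4 were higher and 1 lower in TFC- than in endothelial-like cells, where 29.0% of all genes were called higher and 26.3% lower. Against fibroblast-like cells 1 was higher and 3 lower, where 24.2% and 27.4% of genes were called. Against stromal-like cells 2 were higher and 2 lower (22.3% and 18.9% of genes), and against macrophage-like cells also 2 and 2 (29.8% and 24.0%). Against T-like cells 4 were higher and 1 lower (34.6% and 30.1%). The counts against endothelial- and T-like cells include Slc7a8 as higher, from a TFC-like level that was not above free RNA. Dio1 was the member that was higher in TFC-like cells in all 5 comparisons. The medians of the 5 log2 fold changes were 2.11, -1.79, -0.85, -0.57 and 2.22 in the same order.

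**Figure D5:**
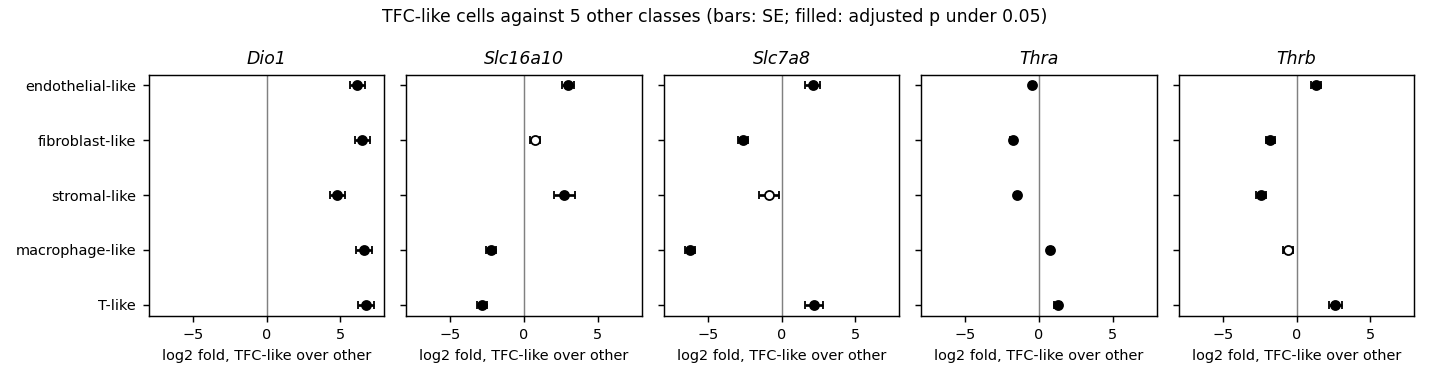
Log2 fold change ± SE of the 5 members tested, TFC-like cells over each of 5 other classes, with filled points for an adjusted p under 0.05. Dio1 lies from 4.81 to 6.74 in all 5 comparisons, whereas Thra and Thrb are below 0 against stromal- and fibroblast-like cells and Slc7a8 is at -6.24 against macrophage-like cells.

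The other genes of the pathway were 41 genes in 5 roles, of which 37 could be tested. In TFC-like cells 14 were higher and 8 lower than in endothelial-like, 10 and 12 than in fibroblast-like, 10 and 6 than in stromal-like, 10 and 8 than in macrophage-like and 13 and 10 than in T-like cells. The median log2 fold changes were -0.21, 0.16, 0.00, 0.06 and 0.26. The shares of all genes called in these comparisons are those given above for the members. Whether the counts of the list differ from them was not tested.

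Among the transporters, 8 of 11 could be tested. Slco2a1, a prostaglandin transporter of the OATP family, had 94.3, 132, 94.1 and 153 CPM in TFC-like cells and was called higher in all 5 comparisons. Slc3a2, the heavy chain that LAT2 needs at the membrane, had 105, 123, 116 and 121 CPM in TFC-like cells and 222, 271, 334 and 268 in the Areg- and Il1rl1-rich cells. It was lower in TFC- than in macrophage-like cells (log2 -0.94, adjusted p = 0.00127) and T-like cells (log2 -0.99, adjusted p = 6.41e-04). Against fibroblast-like cells (log2 0.69, adjusted p = 0.0179) and stromal-like cells (log2 1.24, adjusted p = 3.03e-04) it was higher in TFC-like cells. Slco3a1 had 2.20, 3.51, 2.60 and 4.80 CPM in TFC-like cells, and 151, 323 and 294 in parathyroid-like cells of day 5, 20 and 30.

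Of 5 genes of hormone binding, conjugation and iodine recovery, 4 could be tested. Iyd, which recovers iodide from iodotyrosines, had 771, 747, 684 and 809 CPM in TFC-like cells (753 ± 52.2), with little spread between libraries. It was called higher in all 5 comparisons, with log2 7.07 over fibroblast-like cells and 6.51 over endothelial-like cells (adjusted p = 9.57e-13). Sult1a1, a sulfotransferase, had 10.7, 10.4, 36.8 and 10.3 CPM in TFC-like cells and a mean of 129 in macrophage-like cells, and was lower in TFC-like cells by log2 fold changes of -3.29 against those and -2.73 against endothelial-like cells. Aldh1a1 had 6.65, 4.56, 4.74 and 3.04 CPM in TFC-like cells, and 120.5, 91.6, 515 and 14.9 in nerve-like cells.

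The receptor partners (Rxra, Rxrb and Rxrg) and co-regulators were 11 genes, and all could be tested. The co-repressor Ncor1 had 144, 189.9, 188 and 214 CPM in TFC-like cells and was lower there than in T-like cells (log2 -1.15, adjusted p = 1.36e-08). The co-activator Ncoa3 had 47.0, 57.1, 44.6 and 44.5 CPM in TFC-like and 157, 121, 146 and 80.6 in endothelial-like cells (log2 -1.33, adjusted p = 6.83e-09). Tbl1xr1, part of the Ncor complex, had 44.2, 62.4, 53.6 and 59.2 CPM in TFC-like cells and was higher there than in endothelial-like cells (log2 1.20, adjusted p = 1.68e-06). In all, 4 of the 11 were higher and 3 lower in TFC- than in endothelial-like cells, where 29.0% and 26.3% of all genes were called, and 1 was higher and 4 lower than in fibroblast-like cells, where 24.2% and 27.4% were. Rxra was among those lower in both comparisons (log2 -0.76, adjusted p = 0.00208, and log2 -0.52, adjusted p = 0.0377) and was higher than in T-like cells (log2 2.49, adjusted p = 9.10e-10). These values of Rxra were chosen after they were seen.

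Selenoprotein synthesis, which deiodinases need, was covered by 6 genes, and all could be tested. Trnau1ap had 52.8, 48.1, 39.4 and 46.1 CPM in TFC-like cells, Pstk 31.7, 23.2, 24.6 and 31.1 and Sephs2 24, 25.5, 17.4 and 25.3. Sephs2 was higher in TFC- than in fibroblast-like cells by log2 0.86 (adjusted p = 0.00200) and Pstk higher than in endothelial-like cells by 0.68 (adjusted p = 0.00184). Sephs2 was also higher than in endothelial-like cells (log2 0.65, adjusted p = 0.0165). Taken over all libraries, it was lower than in T-like cells (log2 -0.78, adjusted p = 0.00384). In TFC-like cells 2 were higher and 0 lower against endothelial- and against fibroblast-like cells, 1 and 0 against stromal- and against macrophage-like cells, and 1 and 2 against T-like cells. Of all genes, 29.0%, 24.2%, 22.3%, 29.8% and 34.6% were called higher in these comparisons, in the order of the classes named. Those called lower were 26.3%, 27.4%, 18.9%, 24.0% and 30.1% in the same order. Eefsec, the selenocysteine elongation factor, was 3.70-fold lower in TFC- than in T-like cells (adjusted p = 1.32e-08) and was chosen after its values were seen. The T-like cells with which Sephs2 and Eefsec were compared differed between libraries in their mix of clusters. Clusters 28 and 30 made up 66.3% and 14.2% of them in day 20 and 62.9% and 28.3% in day 30. In day 5 and day 10 neither cluster exceeded 1.31%. The part of this mix in the differences of Sephs2 and Eefsec was not tested.

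Of 8 genes that respond to thyroid hormone in other tissues, Me1 (malic enzyme) and Ppargc1a, a co-activator of mitochondrial genes chosen after its values were seen, were called higher in TFC-like cells in all 5 comparisons. Ppargc1a had 28.4, 31.3, 50.9 and 30.3 CPM there, 36.3-fold above endothelial-like cells (adjusted p = 3.06e-15). Me1 had 92.4, 108, 104 and 105 CPM there, 102 ± 6.91 (SD, n = 4), and its log2 fold change was 4.24 over endothelial-like cells (adjusted p = 1.52e-17). Thrsp, a lipogenic gene, was instead highest in endothelial-like cells at 437, 308, 838 and 179 CPM, against 4.10, 1.87, 3.36 and 2.63 in TFC-like cells (log2 -7.12, adjusted p = 1.00e-15). Klf9, a receptor target, had 179.7, 207, 299 and 193 CPM in TFC-like and 358, 428, 813 and 275 in stromal-like cells, a difference that was not called (log2 -0.76, adjusted p = 0.0851). It was lower in TFC- than in fibroblast-like cells (log2 -1.05, adjusted p = 0.0103). Against T-like cells (log2 2.82, adjusted p = 5.61e-08) and macrophage-like cells (log2 1.42, adjusted p = 8.85e-04) it was higher in TFC-like cells. Dbp, a clock output gene, had 250.4, 82.2, 383 and 65.3 CPM in TFC-like cells and 373, 47.2, 409 and 30.1 in endothelial-like cells, high in day 5 and day 20 like Nr1d1.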

How the data were processed

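Raw UMI counts of 4 libraries of mouse thyroid were analysed as deposited. Per the labels and the methods, the authors made these counts with CellRanger on Chromium 3′ libraries and the mm10 genome, and their processing notes name Seurat 3.1.4 and 3.6.3. Whether counting used strand is not given in the sources used here. Barcodes of the authors' cell lists with at least 200 UMIs, at most 10% mitochondrial and at most 5% hemoglobin UMIs were kept, and the 6% of cells with the highest doublet scores (Scrublet) were removed from each library, since the automatic threshold marked few cells in some libraries. Cells were clustered in scanpy 1.11.5 (3000 variable genes without members and pathway genes, 30 principal components, 20 neighbors, Leiden resolution 0.9). Clusters were named by marker lists. The exact naming rule was settled after the clusters were seen, and 7 clusters stayed unnamed.

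UMIs were summed for each class and library with at least 20 cells, which gave 54 sums of 15 classes. edgeR 4.0.16 (quasi-likelihood test, TMM, filterByExpr, library as a block) tested 14675 genes in R 4.3.3 with Benjamini-Hochberg adjustment at 0.05. DESeq2 1.42.0 and Seurat 5.3.0 served for alternatives. Pooled mice give no replicate of an age, so ages were not tested. Ratios of day 30 to day 5 used a pseudocount of 0.5 UMIs, and 2-fold was taken as the size to count. Intervals at 95% and floors of 3 counts cover counting error only. The test was run on simulated data of the TFC-like and endothelial-like sums (12960 genes, 200 of them changed): 99% of 4-fold and 23% of 2-fold changes were recovered, with 2 false calls. The simulated sums shared a common mean profile apart from the changed genes, with a fixed dispersion and no library effect. These rates therefore need not hold for the real sums. Sequences come from GENCODE vM21 transcripts on GRCm38.

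The members, the pathway list and the markers were chosen with earlier results of these data known. Genes named were the 8 members, H19 and class markers. In each pathway role, the 3 genes with the highest mean CPM and any with at least 100 CPM in TFC-like cells were named. So were the 3 genes most like each member with at least 10 CPM in some class (Pearson r of log2(CPM + 1)). Hemoglobin genes were set beside H19 as a check of the age labels, and their values are not reported here. Genes chosen after their values were seen are named as such. A pathway gene that the rule would name is not reported here, though counts over the list include it.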

Additional observations from a re-analysis of the deposited data

Results flagged for a closer look

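Dio1 in the library labelled day 5 stood far above the other libraries in 4 of the 44 groups of 4 libraries that were looked at, and chance flags about 1 in 20 groups. The values were 11 CPM in T-like cells with the next at 1.43, 14.6 in fibroblast-like cells with the next at 2.27, 101 in nerve-like cells with the next at 15.2, and 61.6 in stromal-like cells with the next at 1.52. The 4 groups come from the same library, in which free RNA also held the most Dio1 (158 CPM, against 62.4 in the next library).

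Cells that stayed unnamed, and so entered no comparison, held 4 levels, pooled over the libraries, above the highest mean over libraries of a named class. Dio1 had 301 CPM (289 to 313) in cluster 0, led by Gem, Tg and Hbegf, whose markers were a mix of TFC and endothelial lists, and 339 CPM (306 to 375) in cluster 5, led by the muscle genes Acta1 and Mylpf at a median of 927.5 UMIs, against a mean of 290.1 in TFC-like cells. The TFC-like level ran from 178 to 428 by library, so both pooled values lie within it, and 435 of the 493 cells of cluster 0 came from the day 5 library. Slc16a10 had 218 CPM (133 to 336) in cluster 31, from 20 UMIs in 145 cells at a median of 612 UMIs, against a mean of 53.1 in monocyte-like cells. Crym had 4.92 CPM in cluster 8, led by Ccl4 and Cxcl2, where 18 of its 20 UMIs came from the day 5 library, against a mean of 2.72 in nerve-like cells.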

How the results depend on the processing

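The counts of genes called stayed within 1.5 times in all 60 alternatives, at 6941 to 9240 against 8113 for endothelial-like, 6157 to 8796 against 7565 for fibroblast-like, 4561 to 6548 against 6045 for stromal-like, 6459 to 8655 against 7897 for macrophage-like and 8178 to 10785 against 9500 for T-like cells. The percent of calls that were higher in TFC-like cells ranged over 45.8 to 54.5, 42.7 to 49.9, 47.9 to 59.9, 47.5 to 58.0 and 46.5 to 56.4 in the same order. Fold changes of members kept their direction and call in 290 alternatives, and 10 did not. Thra in TFC- over endothelial-like cells was no longer called without the library block (log2 -0.46), with doublets kept (-0.41, adjusted p = 0.0553) or after integration (-0.43, adjusted p = 0.0745), and ran from -0.56 to -0.44 with each library left out, its call lost without day 30. Slc7a8 in TFC- over T-like cells was no longer called with cells of at most 10000 UMIs (1.86, adjusted p = 0.0583) or doublets kept (0.96, adjusted p = 0.0959), and ran from 1.90 to 2.32 with each library left out, its call lost without day 20 (2.01, adjusted p = 0.0803). Slc7a8 in TFC- over stromal-like cells reversed with doublets kept (0.30, adjusted p = 0.678). With cells of at most 10000 UMIs, Thra in TFC- over macrophage-like cells was not called (0.28), while Slc16a10 in TFC- over fibroblast-like cells was (1.15, adjusted p = 0.0131). The cause was not tested. The ratio of day 30 to day 5 for Dio1 in TFC-like cells was -1.34 under that limit and -1.18 with cells placed by their own markers. Under the limit its direction turned for Thrb (1.00 against -0.45), Slc16a10 (-1.03 against 0.46) and Slc7a8 (-1.06 against 0.12). Mean levels moved by over 1 SD in 34 alternatives and by less in 222. No paired analysis was possible because each age has 1 library, as far as ages go. Classes were paired within libraries by the library block. Without the filter on low counts, the fit gave TFC- over fibroblast-like log2 fold changes of -3.59 for Dio2, -4.80 for Dio3 and -4.70 for Crym. Depth limits what can be said of genes with few UMIs, these 3 among them.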
